A study of Mus musculus with 12 samples.

Results

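Gene expression was compared between GMPs, the precursors of granulocytes and monocytes, of mice that lack Gfi1 and of wild-type mice. The comparison used the 3 arrays labelled KO and the 3 labelled WT, 6 of the 12 arrays of the series, chosen by their labels alone. The KO group carried a knock-out of Gfi1 and the WT group was labelled wt, and both were on the C57BL/6 strain, as were the 6 arrays of the human GFI1 knock-in groups (wtKI and SNP). GMPs were sorted from bone marrow by flow cytometry. Total RNA was amplified with a kit made for very small inputs, labelled with biotin and hybridised to Affymetrix mouse Gene 1.0 ST arrays. The sources used here give neither the design of the knock-out allele, the sorting gates and the age of the mice, nor whether each array came from its own mouse. The spread that enters the p-values and standard errors below is therefore that between arrays, and it may be technical. In the fits on 12 and 10 arrays it was estimated over all 4 groups together, so the knock-in arrays also enter it.

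GFI1 is a zinc-finger protein that represses transcription by recruiting the histone demethylase LSD1 with its partner CoREST, and histone deacetylases. GMPs give rise to granulocytes and monocytes, and GFI1 is known for favouring the granulocyte fate and for silencing genes of monocytes and of stem cells there. Mice without it lack mature neutrophils. Its close relative GFI1B acts mainly in the erythroid and megakaryocyte lineages.

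One value per gene and array, on the log2 scale of the deposited signal, was the median over the probe sets that carry that gene's symbol alone, and 14201 genes had one. All differences below are KO minus WT on this scale, with the standard error of the fit. The median can fall on different probe sets on different arrays, and probe sets of 1 gene differ in level. The difference was therefore also taken within each probe set, and the median over the probe sets is given as the within-probe-set difference where the gene value's difference was over 1.5 times as large. KO 1 stood apart from the other arrays, which was already known from earlier results of these data. Its median Pearson correlation with the other arrays of the series was 0.701, against 0.865 and 0.882 for KO 2 and KO 3 and 0.861, 0.847 and 0.863 for WT 1 to WT 3. Probe sets of 1 gene disagreed more on KO 1, with a scatter of 0.729 against 0.357 and 0.304 on the other KO arrays and between 0.356 and 0.433 on the WT arrays. SNP 1 was the other array of this kind, with a median correlation of 0.633. The test was therefore run on all 12 arrays of the series, and again on 10 of them after KO 1 and SNP 1 were left out. The Y-linked gene Eif2s3y was at 8.47, 7.84 and 7.92 on the KO arrays and at 8.05, 8.05 and 2.06 on WT 1, WT 2 and WT 3. It was as low on wtKI 2 and wtKI 3, at 1.94 and 2.07. The Y-linked genes Kdm5d and Uty were also low on WT 3, at 4.04 and 2.72. WT 3 thus held female cells, unlike the KO arrays, WT 1 and WT 2. The part of sex in the differences below was not tested.

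**Figure D1:**
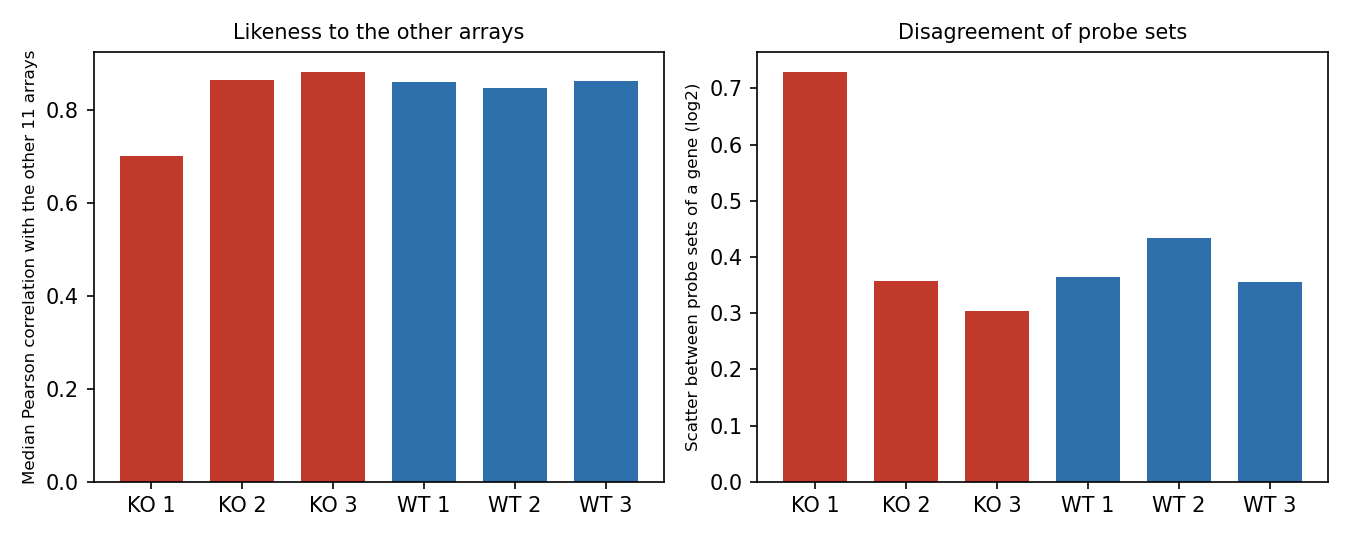
Left, bars give the median Pearson correlation of each KO array (red) and WT array (blue) with the other 11 arrays. Right, bars give the scatter between probe sets of the same gene, in log2 units. KO 1 has the lowest correlation (0.701) and the highest scatter (0.729) of the 6 arrays.

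Several genes of GMPs were bright on all 6 arrays and others were not, while KO 1 also carried genes of other cells. Mpo, the myeloperoxidase of primary granules, was among the brightest genes, at 11.38, 11.45 and 11.52 on the KO arrays and 11.48, 11.46 and 11.47 on the WT arrays. Cd34, a surface protein of progenitors, was at 10.76, 10.48 and 10.72 on the KO arrays and 10.72, 10.54 and 10.73 on the WT arrays, and Ms4a3 and Ctsg were at 9.92 or above on every array of both groups. The Fc receptor gene Fcgr3 was at 8.37, 9.14 and 9.02 on the KO arrays and 8.14, 9.11 and 8.97 on the WT arrays. Less bright were Fcgr2b, at 7.20, 7.77 and 7.88 on the KO arrays and 7.45, 7.10 and 7.66 on the WT arrays, and Flt3, at 6.98, 7.38 and 7.31 on the KO arrays and 7.48, 6.91 and 7.49 on the WT arrays. On KO 1 the granule protease gene Prtn3 was lower, at 7.98, 9.10 and 8.98 on the KO arrays and 8.88, 8.87 and 9.02 on the WT arrays, and the haemoglobin gene Hbb-b1 was high, at 10.31, 5.92 and 5.71 on the KO arrays and 6.91, 5.90 and 8.80 on the WT arrays. Genes of later neutrophils were present at levels that differed from array to array, with Chil3 at 10.17, 8.13 and 6.71 on the KO arrays and 7.51, 6.65 and 8.63 on the WT arrays, while Ly6g, a surface marker of mature neutrophils, was at 3.98 or below on every array. Of 15 GMP genes measured, 2 were higher and 13 lower in KO, with a median difference of -0.17 (0.00 without KO 1). Over all genes 47.3% were higher and 52.7% lower in KO (47.5% and 52.5% without KO 1), and the median difference was -0.02.

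The deleted gene itself was not lower on the KO arrays. Gfi1 was at 6.43, 6.74 and 6.58 on the KO arrays and 5.59, 5.78 and 6.29 on the WT arrays, so that every KO array lay above every WT array. The difference of 0.69 ± 0.22 (0.46 within probe sets) did not pass the test (limma adjusted p = 0.791, and 0.518 on the 10 arrays). Of its 5 probe sets, 3 were higher and 2 lower in KO, and the brightest, 10532125, was at 9.94, 10.39 and 10.17 on the KO arrays and 9.25, 10.02 and 9.85 on the WT arrays. The sources used here do not say which exons the allele removes, so these probe sets do not check the KO label. Gfi1b was at 7.90, 6.65 and 6.46 on the KO arrays and 6.42, 6.07 and 6.26 on the WT arrays, also without overlap, and its difference of 0.75 ± 0.32 (0.30 without KO 1) did not pass (adjusted p = 1).

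Few genes passed the test across all genes. In the fit on 12 arrays 1 gene of 14201 (0.00704%) was called at an adjusted p of 0.05, and it was lower in KO. In the fit on 10 arrays 9 genes (0.0634%) were called, 7 higher (0.0493%) and 2 lower (0.0141%) in KO. With gene values by median polish, which sets each probe set against itself, 4 of the 9 passed on the 10 arrays (Mmp8, Tulp4, Ndrg2 and Lrig3) and 0 on the 12. Unadjusted p-values under 0.05 were found for 682 genes (4.80%) in the fit on 12 arrays, 2.58% higher and 2.23% lower in KO. They were found for 930 genes (6.55%) in the fit on 10 arrays, 3.41% higher and 3.14% lower, where 710 would fall there with no difference at all. KO and WT arrays did not overlap for 1618 genes (11.4%), of which 800 were higher (5.63%) and 818 lower (5.76%) in KO. The difference was also at least 1 for 277 genes (1.95%), 176 higher (1.24%) and 101 lower (0.711%). For 30 of the 277 it was over 1.5 times the within-probe-set difference, and 171 of those 277 also met both conditions without KO 1. The counts of list members without overlap given below stand against 5.63% of all genes above and 5.76% below. With KO 2 and KO 3 alone against WT, 3391 genes did not overlap (23.9%, 11.5% higher and 12.4% lower), and 279 of them (1.96%) differed by at least 1, 1.35% higher and 0.613% lower. The typical distance of a gene on KO 1 from its WT mean was 0.43, against 0.23 on KO 2 and 0.22 on KO 3.

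**Figure D2:**
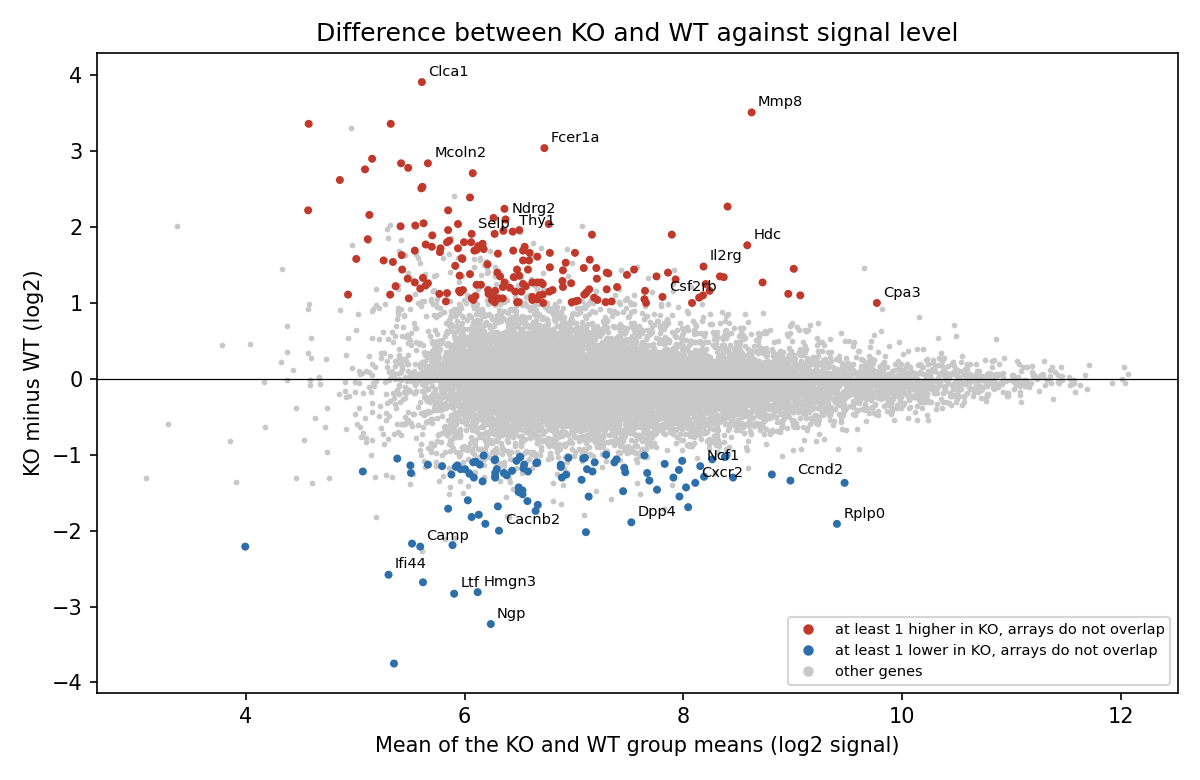
Each point is a gene, with the mean of its KO and WT group means (log2 signal) on the x axis and the KO minus WT difference (log2) on the y axis. Coloured points are the 176 genes higher (red) and 101 lower (blue) in KO by at least 1 whose arrays do not overlap. Mmp8 lies at a difference of 3.51 and Ngp at -3.23.

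Mmp8, the collagenase of neutrophil specific granules, rose in KO. It was at 10.32, 10.35 and 10.48 on the KO arrays and 6.49, 7.10 and 7.01 on the WT arrays, so the groups were far apart. The difference was 3.54 ± 0.36 on the 10 arrays (adjusted p = 0.0117), and 3.51 ± 0.65 on all 12, where it did not pass (adjusted p = 0.214). All of its 11 probe sets separated the groups, with differences between 2.46 and 5.14. KO 1 was level with KO 2 and KO 3. Standard deviations were 0.09 within KO and 0.33 within WT. The larger error on 12 arrays also holds the spread of the knock-in arrays, SNP 1 among them. A change in the share of cells of a type and a change in RNA per cell cannot be told apart in these sorted pools. This holds for Mmp8 and for every gene below.

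Lrig3, Ifitm1, Tulp4, Slc35f2 and Ndrg2 also rose on the 10 arrays, each higher on every KO array than on any WT array. With median polish Ifitm1 (adjusted p = 0.108) and Slc35f2 (adjusted p = 0.0710) did not pass. Lrig3, a membrane protein related to inhibitors of growth factor receptors, was at 5.16, 6.87 and 6.70 on the KO arrays and 4.59, 4.44 and 4.81 on the WT arrays (2.17 ± 0.20 on 10 arrays, adjusted p = 0.0107). KO 1 was the lowest KO array by far, and 2 of the 6 probe sets separated the groups. Ifitm1, an interferon-inducible membrane protein, was at 9.53, 9.78 and 9.91 on the KO arrays and 8.40, 8.33 and 8.12 on the WT arrays (1.56 ± 0.18, adjusted p = 0.0219). Of its 3 probe sets, 2 separated the groups. Ndrg2, of the NDRG family of differentiation-related proteins, was at 7.71, 7.12 and 7.45 on the KO arrays and 5.58, 5.26 and 5.14 on the WT arrays (1.96 ± 0.27, adjusted p = 0.0450), and 10 of its 11 probe sets separated the groups. Tulp4, a Tubby-like protein, was at 7.21, 6.18 and 6.27 on the KO arrays and 4.55, 4.75 and 4.33 on the WT arrays (1.69 ± 0.22, adjusted p = 0.0450), and all 9 of its probe sets separated them.

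Slc35f2, a member of the nucleotide-sugar transporter family, was at 5.05, 7.54 and 8.04 on the KO arrays and 3.64, 4.44 and 4.96 on the WT arrays (3.44 ± 0.46, adjusted p = 0.0450). The WT values of Slc35f2, Lrig3 and Tulp4 were all within the lowest 5% of probe sets on their arrays. Fzd6, a Wnt receptor, was called at 1.38 ± 0.19 (adjusted p = 0.0450), but its gene values, 7.41, 7.21 and 7.27 on the KO arrays and 6.06, 5.68 and 5.83 on the WT arrays, come from different probe sets in the groups. Within its 3 probe sets the differences were 0.26, 0.41 and 3.19, and only 10423833 separated the groups, at 7.77, 7.21 and 7.92 on the KO arrays and 2.85, 5.46 and 5.01 on the WT arrays. With median polish Fzd6 differed by 0.54 ± 0.23 and did not pass (adjusted p = 0.679), so no change of the gene is read from the call. None of the 7 genes called as higher passed in the fit on 12 arrays, where their adjusted p-values ran from 0.0813 for Tulp4, Ndrg2 and Fzd6 to 0.824 for Ifitm1.

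Cacnb2 fell in KO on the 10 arrays, and Rplp0 was called as lower in both fits. Cacnb2, a regulatory subunit of voltage-gated calcium channels, was at 5.79, 5.14 and 5.01 on the KO arrays and 7.04, 6.95 and 7.97 on the WT arrays (-2.24 ± 0.31 on 10 arrays, adjusted p = 0.0450), and all 10 of its probe sets were lower. With median polish Cacnb2 differed by -2.00 ± 0.41 and did not pass (adjusted p = 0.158). Its values on KO 2 and KO 3 were within the lowest 5% of probe sets. Rplp0, a protein of the large ribosomal subunit, was at 8.15, 8.63 and 8.56 on the KO arrays and 10.38, 10.28 and 10.41 on the WT arrays. It was the only gene to pass in both fits (-1.91 ± 0.20, adjusted p = 0.00949 on 12 arrays, and -1.76 ± 0.19, adjusted p = 0.0117 on 10). Its gene values come from different probe sets in the groups, with 10524719 giving all the WT values and none of the KO values. With median polish it differed by -0.76 ± 0.19 on the 10 arrays and -1.33 ± 0.38 on the 12, and did not pass (adjusted p = 0.262 and 0.685). Probe set 10524719 was at 5.33, 5.66 and 5.27 on the KO arrays and 10.38, 10.28 and 10.41 on the WT arrays, whereas 10524721 was at 11.80, 11.81 and 11.79 on the KO arrays and 11.85, 11.81 and 11.83 on the WT arrays. In the knock-in groups, probe set 10524719 was at 5.45, 5.35 and 5.50 with wtKI and at 10.10, 10.22 and 10.10 with SNP, so it took a low or a high level by group. Ribosomal protein genes have many near-identical copies in the genome, and those of Rplp0 were not checked. The value of Rplp0 is uncertain, and the cause of the 2 levels of 10524719 was not tested. Rplp0 lies on chromosome 5, as Gfi1 does.

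**Figure D3:**
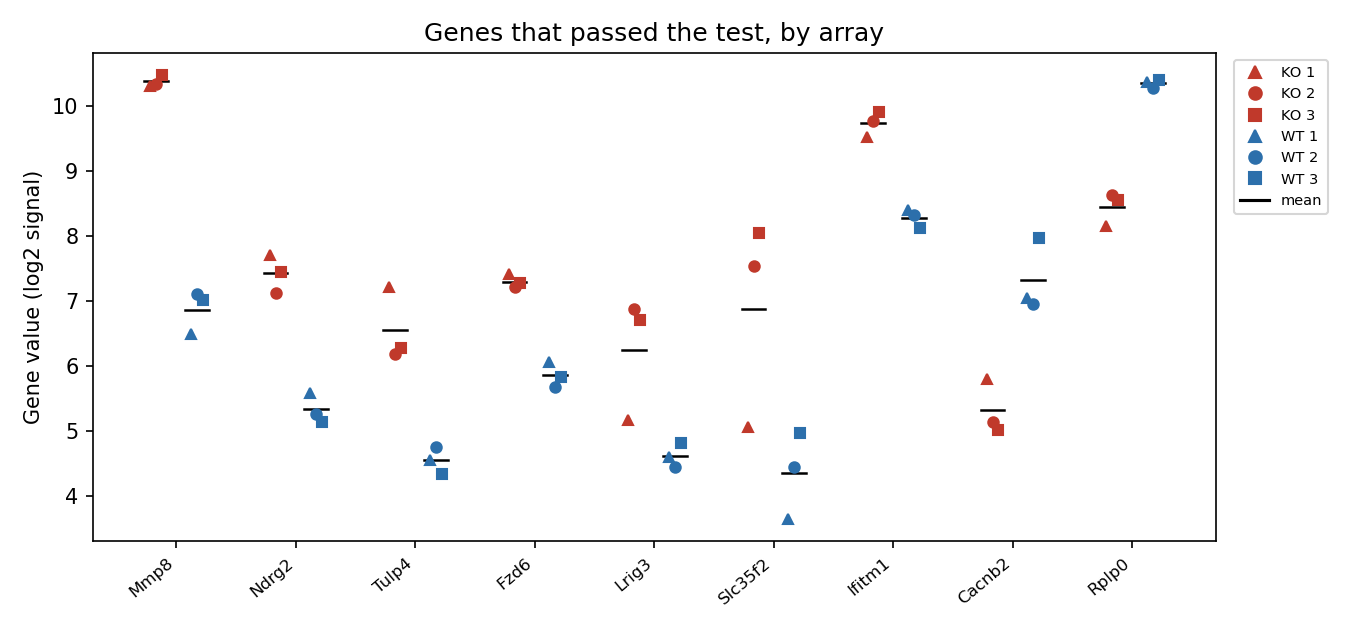
Each point is a gene value (log2 signal) on 1 array, KO in red to the left of WT in blue, with the marker giving the array number and the line the mean of 3 arrays. For all 9 genes the KO and WT arrays do not overlap, though the values of Fzd6 and Rplp0 come from different probe sets in KO and WT, and for Lrig3 and Slc35f2 KO 1 (triangle) lies closest to the WT arrays.

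GFI1 binds DNA through a core of the letters AATC. The promoters below run from 250 bases before to 50 bases after the gene's start in RefSeq (GRCm38.p6), and are shown because they are those, among 17 looked at for genes described here, that hold the longer word AAATCA, which contains that core. Capitals mark AAATCA on either strand. They are the promoters of Gfi1b, Mmp8, the histidine decarboxylase gene Hdc, Slc35f2 and the carboxypeptidase gene Cpa3, which were higher in KO without overlap, and of the lactoferrin gene Ltf and the monocyte factor gene Irf8, which were lower.
Gfi1b (chr2:28621933-28622232, minus strand): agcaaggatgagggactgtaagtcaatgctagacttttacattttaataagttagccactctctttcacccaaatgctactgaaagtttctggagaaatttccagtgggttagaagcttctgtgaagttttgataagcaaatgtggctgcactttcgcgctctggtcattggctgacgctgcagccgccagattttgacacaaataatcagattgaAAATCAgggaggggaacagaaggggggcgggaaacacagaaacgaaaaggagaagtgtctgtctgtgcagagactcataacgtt
Mmp8 (chr9:7558179-7558478, plus strand): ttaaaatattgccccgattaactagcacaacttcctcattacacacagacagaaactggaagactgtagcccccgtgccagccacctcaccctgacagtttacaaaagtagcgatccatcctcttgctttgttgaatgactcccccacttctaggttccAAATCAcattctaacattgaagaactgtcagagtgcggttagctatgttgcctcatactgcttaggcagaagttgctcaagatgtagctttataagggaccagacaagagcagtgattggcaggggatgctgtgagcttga
Hdc (chr2:126618629-126618928, minus strand): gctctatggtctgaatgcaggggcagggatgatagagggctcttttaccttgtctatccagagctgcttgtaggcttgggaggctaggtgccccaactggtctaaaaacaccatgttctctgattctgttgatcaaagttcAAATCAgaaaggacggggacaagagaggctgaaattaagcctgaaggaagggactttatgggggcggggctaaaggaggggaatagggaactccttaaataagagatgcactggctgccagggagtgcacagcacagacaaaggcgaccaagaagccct
Slc35f2 (chr9:53771285-53771584, plus strand): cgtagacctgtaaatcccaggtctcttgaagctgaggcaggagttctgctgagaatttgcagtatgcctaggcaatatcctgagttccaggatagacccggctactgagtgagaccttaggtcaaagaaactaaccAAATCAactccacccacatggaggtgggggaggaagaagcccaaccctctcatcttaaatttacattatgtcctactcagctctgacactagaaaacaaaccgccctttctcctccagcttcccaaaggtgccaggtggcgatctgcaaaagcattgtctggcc
Cpa3 (chr3:20242132-20242431, minus strand): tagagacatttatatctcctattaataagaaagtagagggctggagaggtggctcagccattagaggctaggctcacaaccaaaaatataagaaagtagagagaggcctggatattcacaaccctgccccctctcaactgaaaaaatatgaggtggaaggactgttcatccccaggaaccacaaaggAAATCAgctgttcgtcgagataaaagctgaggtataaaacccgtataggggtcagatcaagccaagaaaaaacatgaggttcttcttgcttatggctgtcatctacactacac
Ltf (chr9:111019042-111019341, plus strand): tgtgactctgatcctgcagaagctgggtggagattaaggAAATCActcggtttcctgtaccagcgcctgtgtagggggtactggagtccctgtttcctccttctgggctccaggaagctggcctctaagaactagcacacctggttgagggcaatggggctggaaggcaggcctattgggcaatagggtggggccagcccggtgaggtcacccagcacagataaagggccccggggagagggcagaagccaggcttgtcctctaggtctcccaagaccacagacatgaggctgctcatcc
Irf8 (chr8:120736108-120736407, plus strand): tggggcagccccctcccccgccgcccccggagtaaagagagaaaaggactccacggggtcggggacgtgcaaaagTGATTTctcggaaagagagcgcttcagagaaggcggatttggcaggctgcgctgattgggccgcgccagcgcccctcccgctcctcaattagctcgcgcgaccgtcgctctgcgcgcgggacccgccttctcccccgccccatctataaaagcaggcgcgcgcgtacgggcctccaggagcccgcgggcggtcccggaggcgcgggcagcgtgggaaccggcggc

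Searched on both strands, AAATCA was in 1039 of 11312 promoters of measured genes (9.18%). It was in 31 of 143 promoters (21.7%) of genes at least 1 higher in KO without overlap, and in 9 of 78 (11.5%) of those at least 1 lower. The same letters in reverse order, ACTAAA, were in 6.49% of all promoters, 6.99% of those higher and 7.69% of those lower. The core AATC was in 66.9% of all promoters, 69.9% of those higher and 73.1% of those lower. Mean G and C content was 56.3% in promoters of the higher genes, 55.5% in those of the lower genes and 60.0% over all. Among the other genes that passed, the promoters of Ndrg2, Tulp4, Lrig3, Ifitm1 and Cacnb2 did not hold AAATCA, which says only that these letters are not in that window.

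Ngp, Ltf and Camp, 3 genes of late neutrophil granules, went the other way from Mmp8. Ngp, the neutrophilic granule protein, was at 6.23, 4.13 and 3.51 on the KO arrays and 8.09, 6.28 and 9.20 on the WT arrays. Ltf, which encodes the iron-binding lactoferrin, was at 5.18, 3.97 and 4.31 on the KO arrays and 7.29, 6.24 and 8.41 on the WT arrays. Camp, the precursor of the antimicrobial cathelicidin peptide, was at 4.45, 4.78 and 4.24 on the KO arrays and 6.64, 5.54 and 7.91 on the WT arrays. In each of the 3 the groups did not overlap, and the WT arrays differed among themselves, with WT 3 highest and WT 2 lowest. The differences of -3.23 ± 1.11, -2.83 ± 1.04 and -2.21 ± 1.04 did not pass (adjusted p = 0.896, 0.931 and 1), and on the 10 arrays Ltf came nearest (-3.18 ± 0.48, adjusted p = 0.0665). Of the 13 probe sets of Ltf, 12 were lower and 7 separated the groups. The KO 2 and KO 3 values of Ngp, Ltf and Camp were all within the lowest 5% of probe sets, so the size of these differences is uncertain.

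Over the 22 late neutrophil genes measured, 8 were higher and 14 lower in KO, with a median of -0.20, and 1 of them lay above without overlap (Mmp8) and 4 below (Ngp, Ltf, Camp and Cxcr2), against 5.63% and 5.76% of all genes. Cxcr2, a chemokine receptor that draws neutrophils out of the marrow, was at 6.74, 7.54 and 8.0 on the KO arrays and 8.98, 9.03 and 8.38 on the WT arrays (-1.37 ± 0.77). Lcn2 and Pglyrp1 overlapped, with differences of -0.19 and 0.30 (0.23 and 0.48 without KO 1). KO 1 went against KO 2 and KO 3 for other members. S100a9, a subunit of calprotectin, was at 8.91, 6.50 and 5.50 on the KO arrays and 8.54, 7.80 and 9.69 on the WT arrays, and S100a8 was at 8.86, 7.19 and 5.79 on the KO arrays and 7.49, 7.98 and 8.85 on the WT arrays. Without KO 1, 5 were higher and 17 lower, and the median was -0.43. Then 10 lay below the WT arrays without overlap and 3 above, against 12.4% and 11.5% of all genes.

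**Figure D4:**
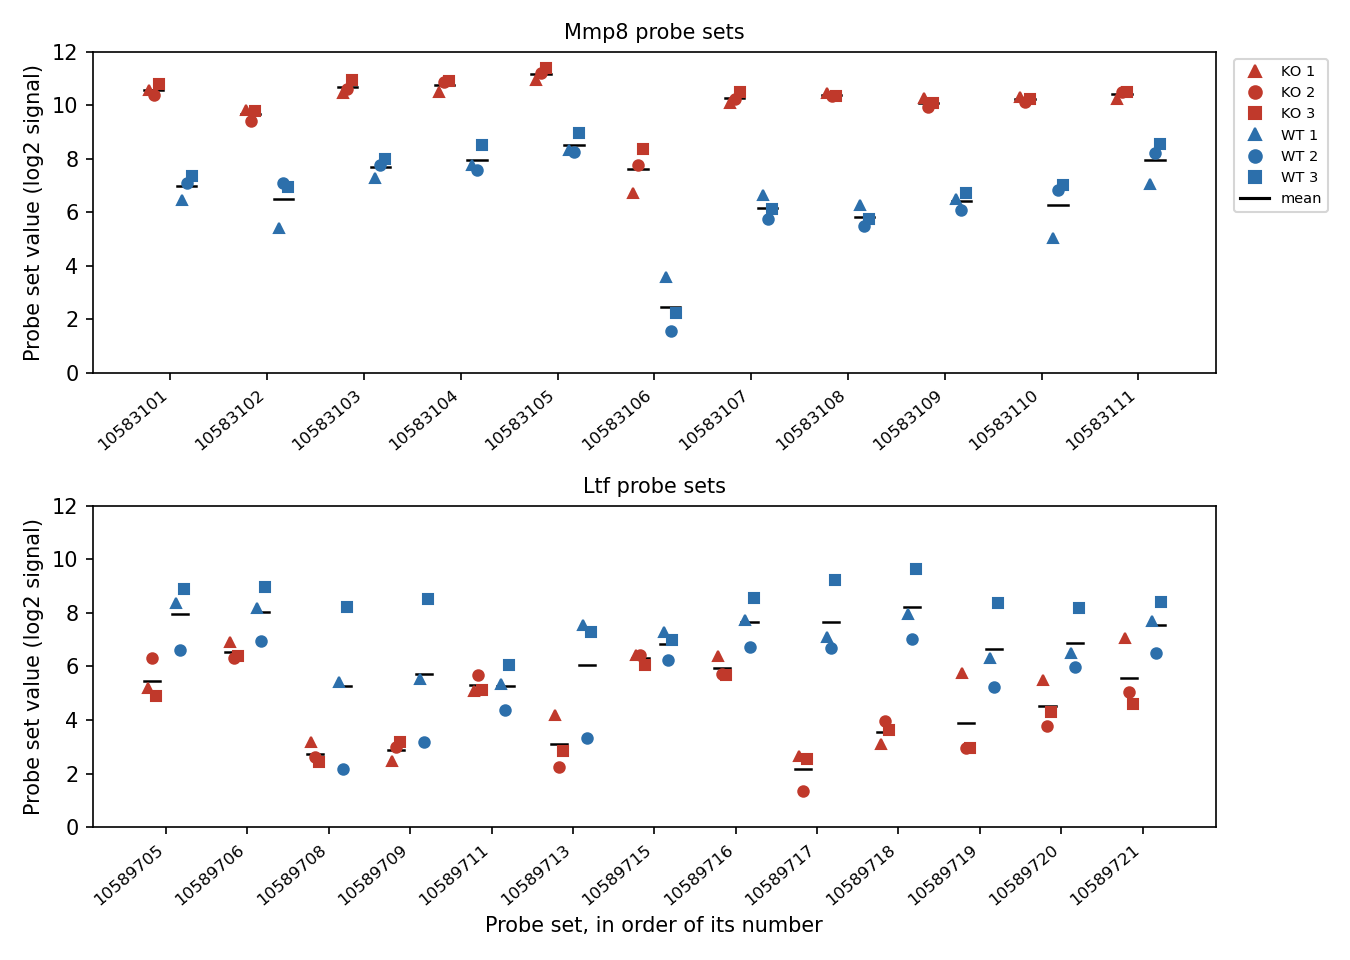
Each point is the log2 signal of a probe set on 1 array, KO in red to the left of WT in blue, with the mean of 3 arrays as a line, for the 11 probe sets of Mmp8 (top) and the 13 of Ltf (bottom). Every Mmp8 probe set is higher on all KO arrays, and 12 of 13 Ltf probe sets have a lower KO mean.

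Primary granule genes, which GMPs themselves make, showed no common direction. Of 12 measured, 6 were higher and 6 lower, with a median of 0.01, and the 1 that did not overlap was Ctsg, the serine protease cathepsin G, at 11.02, 11.41 and 11.30 on the KO arrays and 11.50, 11.57 and 11.48 on the WT arrays. Prtn3, proteinase 3, differed by -0.24 (0.11 without KO 1). Fcnb, the pattern-recognition protein ficolin B, was at 6.71, 5.45 and 5.31 on the KO arrays and 6.72, 6.79 and 6.33 on the WT arrays, and Lyz2, a lysozyme, was at 10.72, 8.36 and 7.71 on the KO arrays and 9.01, 8.70 and 8.97 on the WT arrays. The difference of Fcnb was -0.79, or -0.47 within probe sets. KO 1 overlapped WT in Fcnb and lay above it in Lyz2, while KO 2 and KO 3 lay below WT in both. Nkg7 and Hp differed by 0.64 ± 0.44 and 0.50 ± 0.49. Without KO 1, 7 of the list were higher and 5 lower, and the median was 0.07. Then 4 lay below the WT arrays without overlap and 1 above, against 12.4% and 11.5% of all genes. Fcnb then differed by -1.23 ± 0.23 and Lyz2 by -0.86 ± 0.29, and neither passed.

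Genes of mast cells, basophils and eosinophils were mostly higher in KO. Of 20 measured, 18 were higher (90.0%, against 47.3% of all genes), with a median of 0.72 (0.30 without KO 1), and 7 lay above without overlap and none below, where 5.63% of all genes lay above. None passed the test. Fcer1a, the IgE-binding chain of the high-affinity IgE receptor, was at 8.41, 7.88 and 8.46 on the KO arrays and 3.08, 5.96 and 6.59 on the WT arrays, a difference of 3.04 ± 0.88 (adjusted p = 0.677) with all 3 probe sets apart. Hdc, which makes histamine, was at 9.34, 9.52 and 9.54 on the KO arrays and 6.82, 8.27 and 8.02 on the WT arrays (1.76 ± 0.38, adjusted p = 0.322), with 9 of 12 probe sets apart. In both genes the KO arrays lay close together and the WT arrays far apart, with WT 1 lowest.

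Cpa3, the mast cell carboxypeptidase, was at 10.18, 10.11 and 10.52 on the KO arrays and 9.59, 9.84 and 8.37 on the WT arrays (1.00 ± 0.50). Ms4a2, the receptor's beta chain, was at 8.11, 6.96 and 7.49 on the KO arrays and 6.72, 6.45 and 6.34 on the WT arrays (1.02 ± 0.50). Slc18a2, which loads amines into granules, was at 8.73, 7.84 and 8.03 on the KO arrays and 7.17, 7.78 and 7.52 on the WT arrays. The groups did not overlap in any of the 3, nor in Gata1 or Alox15, which differed by 1.08 ± 0.49, or 0.37 without KO 1. The eosinophil granule gene Prg2 overlapped, at 10.97, 10.35 and 9.83 on the KO arrays and 9.64, 10.24 and 6.88 on the WT arrays. Averaged over the list and set against the WT mean, the arrays stood at 1.04, 0.52 and 0.53 for KO 1 to KO 3 and at -0.11, 0.42 and -0.31 for WT 1 to WT 3. WT 2 thus lay close to KO 2 and KO 3.

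Among 23 receptors for haematopoietic cytokines and growth factors, 15 were higher and 8 lower, with a median of 0.08, and 6 lay above and 2 below without overlap (against 5.63% and 5.76% of all genes). Those above were Csf2rb, Csf2rb2, Il2rg, Il6st, Tgfbr2 and Epor, and those below were Kit and Csf3r. Csf2rb, the signalling chain shared by the receptors for GM-CSF, IL-3 and IL-5, was at 8.44, 8.36 and 8.25 on the KO arrays and 7.49, 7.13 and 7.17 on the WT arrays (1.08 ± 0.22, adjusted p = 0.252, and 0.115 on 10 arrays). All 9 of its probe sets were higher and 7 were apart. Csf2rb2, the mouse IL-3-specific copy of that chain, was at 7.72, 7.27 and 7.12 on the KO arrays and 5.30, 6.49 and 5.64 on the WT arrays (1.56 ± 0.41). The pair are close paralogs, so probe sets in shared sequence could read both. Csf2ra, the ligand-binding chain for GM-CSF, differed by 0.01 ± 0.30, or -0.10 within probe sets.

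Il2rg, the common gamma chain of several interleukin receptors, was at 9.13, 8.69 and 8.96 on the KO arrays and 7.05, 7.20 and 8.07 on the WT arrays (1.5 ± 0.51, adjusted p = 0.896). Il6st, the gp130 chain of the IL-6 receptor family, was at 9.81, 9.77 and 9.85 on the KO arrays and 9.69, 9.18 and 9.09 on the WT arrays. Csf3r, the receptor for the granulocyte factor G-CSF, was at 6.52, 7.39 and 7.47 on the KO arrays and 7.48, 8.03 and 7.59 on the WT arrays (-0.58 ± 0.45, -0.27 without KO 1 and -0.26 within probe sets). Kit, the stem cell factor receptor, was at 7.79, 8.32 and 8.60 on the KO arrays and 8.83, 8.90 and 8.72 on the WT arrays (-0.58 ± 0.46). Csf1r, the receptor of the macrophage factor, overlapped at 8.25, 7.01 and 8.11 on the KO arrays and 8.29, 8.09 and 8.57 on the WT arrays. None of these receptors passed the test in either fit.

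Feedback inhibitors and adaptors of receptor signalling showed no common direction, with 10 of 21 higher, 11 lower and a median of -0.06. Lrig3 passed on the 10 arrays as given above, while its relative Lrig1 was lower without overlap, at 5.88, 5.67 and 5.73 on the KO arrays and 6.10, 6.14 and 7.05 on the WT arrays. Grb10, an adaptor that dampens growth factor receptors, was at 7.22, 7.39 and 7.10 on the KO arrays and 6.34, 5.82 and 6.25 on the WT arrays (1.10 ± 0.26, adjusted p = 0.426), with 8 of 11 probe sets apart. Spry2 was higher without overlap (0.78 ± 0.41) and Spred2 lower (-0.40 ± 0.41, -0.23 within probe sets), and Dusp1, a MAP kinase phosphatase, overlapped at a difference of 1.44 ± 0.61.

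Of 17 genes described as bound or repressed by GFI1, 11 were higher and 6 lower (64.7% higher, against 47.3% of all genes), with a median of 0.05 (0.11 without KO 1), and none passed. Without overlap, 4 lay above (Gfi1, Gfi1b, Egr1 and Hoxa9) and 2 below (Irf8 and E2f5), against 5.63% and 5.76% of all genes. Gfi1, the deleted gene itself, is counted among the 11 and the 4, and its signal is not read as that of a target. Hoxa9, a homeobox factor of progenitors, was at 9.38, 9.53 and 9.63 on the KO arrays and 8.80, 8.49 and 9.12 on the WT arrays (0.71 ± 0.72). Its cofactor Meis1 was at 7.61, 7.64 and 7.49 on the KO arrays and 6.10, 6.18 and 7.60 on the WT arrays (0.95 ± 0.43), so WT 3 overlapped the KO arrays. Egr1, an immediate-early factor that favours monocytes, was at 6.58, 7.62 and 6.85 on the KO arrays and 5.68, 6.46 and 5.97 on the WT arrays (0.98 ± 0.55). Egr2 differed by 0.54 ± 0.23 and Csf1, the macrophage growth factor, by 0.27 ± 0.54 (-0.23 within probe sets), both with overlap.

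Irf8, which directs GMPs towards monocytes, was at 7.69, 7.90 and 8.11 on the KO arrays and 8.80, 8.32 and 9.12 on the WT arrays (-0.85 ± 0.26, adjusted p = 0.774). All 11 of its probe sets were lower and 7 were apart. The cell cycle factor E2f5 was at 4.21, 6.23 and 6.46 on the KO arrays and 6.73, 7.09 and 6.96 on the WT arrays (-1.29 ± 0.56, and -0.58 without KO 1). Over 36 transcription factors of myeloid fate, 23 were higher and 13 lower with a median of 0.07, and 4 lay above (Egr1, Hoxa9, Gata1 and Stat5a) and 1 below (Irf8) without overlap, a share near that of all genes (11.4%). Cebpa, Cebpe and Spi1 overlapped, with differences of -0.21 ± 0.29 for Cebpa, 0.37 ± 0.28 for Cebpe and -0.14 ± 0.33 for Spi1. Without KO 1, Cebpe lay above WT without overlap (0.53 ± 0.22) and did not pass. Bcl6, another zinc-finger repressor, differed by 1.23 ± 0.83 with overlap (0.60 within probe sets).

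The 16 measured partners of GFI1 in chromatin repression had a median of -0.02, with 6 higher and 10 lower. Kdm1a, which encodes LSD1, was at 8.10, 7.94 and 8.78 on the KO arrays and 8.78, 8.43 and 8.83 on the WT arrays (-0.41 ± 0.46, and -0.19 within probe sets), and Hdac2 differed by -0.54 ± 0.33, or -0.21 without KO 1. Pias3, an inhibitor of STAT3 that GFI1 binds, differed by 0.29 ± 0.28. Ehmt2, the histone methyltransferase G9a, was the 1 member without overlap, at 7.07, 6.71 and 7.22 on the KO arrays and 7.27, 7.22 and 7.24 on the WT arrays, a difference of -0.25, or -0.12 within probe sets.

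Monocyte genes did not move one way. Of 16 measured, 9 were higher and 7 lower with a median of 0.17, which was -0.04 without KO 1. Ly86, a Toll-like receptor partner, was at 6.92, 6.42 and 7.73 on the KO arrays and 8.16, 8.66 and 8.27 on the WT arrays (-1.34 ± 0.36, adjusted p = 0.583). F13a1, a subunit of clotting factor XIII, was at 9.40, 9.0 and 9.04 on the KO arrays and 10.28, 9.81 and 10.11 on the WT arrays (-0.92 ± 0.35), with 10 of 15 probe sets apart. Ctss, the protease cathepsin S, lay the other way at 10.01, 9.30 and 9.24 on the KO arrays and 8.24, 8.42 and 8.53 on the WT arrays (1.12 ± 0.39). Several members were high on KO 1 alone, among them Clec4a3, at 9.64, 5.29 and 5.47 on the KO arrays and 4.75, 5.29 and 4.80 on the WT arrays, and Fcgr1 differed by 1.27 ± 0.64 (0.65 without KO 1).

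Relative to WT, the monocyte list averaged 1.02 on KO 1, against -0.01 on KO 2 and -0.13 on KO 3. KO 1 also stood high in erythroid genes (1.29, against -0.63 and -0.19 on KO 2 and KO 3), in B-lineage genes (0.68, against -0.06 and -0.19) and in dendritic cell and MHC class II genes (0.60, against 0.09 and -0.10). It stood low in GMP genes (-0.50, against -0.16 and -0.02) and in ribosome biogenesis genes (-0.50, against 0.06 and 0.11). The part of these genes, or of the array's higher scatter, in the other differences of KO 1 was not tested.

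Macrophage genes were split, with 5 higher and 5 lower of 10 and a median of 0.01. Apoe, which carries lipids, was at 8.87, 7.69 and 7.94 on the KO arrays and 6.07, 7.15 and 7.17 on the WT arrays (1.37 ± 0.48), and the haemoglobin scavenger receptor Cd163 was at 4.84, 6.03 and 6.02 on the KO arrays and 7.13, 6.83 and 6.83 on the WT arrays (-1.30 ± 0.56). The iron exporter Slc40a1 differed by -0.78 ± 0.86 (-0.47 within probe sets). Of 15 dendritic cell and MHC class II genes 11 were higher and 4 lower, with a median of 0.20 that was -0.09 without KO 1. H2-Ab1 was the 1 member without overlap, at 7.73, 7.16 and 7.26 on the KO arrays and 6.95, 6.93 and 6.59 on the WT arrays, and H2-Aa and Cd209a differed by 0.58 ± 0.76 and 0.50 ± 0.59 with overlap.

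Genes of stem and early progenitor cells were mostly higher in KO, and here KO 1 went with the others. Of 16 measured, 13 were higher (81.2%, against 47.3% of all genes) and 3 lower, with a median of 0.22 (0.20 without KO 1). Relative to WT, the list averaged 0.32, 0.32 and 0.35 on KO 1 to KO 3, and between -0.05 and 0.09 on the WT arrays. No member passed the test, and those without overlap were Slamf1, Procr and Mecom above and Kit below (3 and 1 of 16, against 5.63% and 5.76% of all genes). Slamf1, the CD150 antigen of stem cells, was at 4.83, 5.79 and 5.34 on the KO arrays and 4.47, 4.40 and 4.35 on the WT arrays. Its WT values were all within the lowest 5% of probe sets. Procr, the protein C receptor of stem cells, was at 7.43, 7.72 and 7.41 on the KO arrays and 7.03, 7.14 and 6.45 on the WT arrays (0.65 ± 0.23), and Eya1 differed by 1.16 ± 0.51 with overlap (0.61 within probe sets).

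Megakaryocyte and platelet genes were similar in this, with 7 of 10 higher, 3 lower and a median of 0.20, and list means of 0.37, 0.30 and 0.36 on the KO arrays and -0.01, -0.15 and 0.17 on the WT arrays. Selp, the adhesion molecule P-selectin, was at 6.23, 6.83 and 8.0 on the KO arrays and 4.92, 4.89 and 5.53 on the WT arrays (1.91 ± 0.41, adjusted p = 0.285, and 0.0816 on 10 arrays). Pf4, platelet factor 4, was at 8.24, 7.97 and 8.26 on the KO arrays and 6.72, 7.44 and 7.30 on the WT arrays (1.00 ± 0.56). Itga2b, the integrin chain CD41, was at 7.19, 6.68 and 6.89 on the KO arrays and 6.31, 6.11 and 6.17 on the WT arrays (0.72 ± 0.20). Its partner chain Itgb3 lay the other way, at 5.40, 5.52 and 5.97 on the KO arrays and 6.28, 6.01 and 7.10 on the WT arrays.

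Erythroid genes differed mainly on KO 1. The 12 measured had a median of 0.16, which was -0.31 without KO 1, and Rhd, of the Rhesus blood group, was at 9.53, 3.37 and 4.73 on the KO arrays and 4.90, 4.10 and 5.86 on the WT arrays. Epor lay above WT and Car2 below without overlap, with Car2 at 5.52, 5.05 and 5.55 on the KO arrays and 7.83, 5.99 and 5.87 on the WT arrays. Alas2 differed by 0.58 ± 0.86, or 0.02 without KO 1.

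Lymphoid genes had medians of 0.00 over 12 B-lineage genes (6 higher and 6 lower) and 0.06 over 14 T and NK cell genes (9 higher and 5 lower). Dntt, the polymerase that adds nucleotides at joined receptor segments, was at 6.15, 5.88 and 5.46 on the KO arrays and 7.06, 7.35 and 6.70 on the WT arrays (-1.21 ± 0.83). Ebf1 and Igll1 were high on KO 1 alone, with differences of 2.02 ± 1.35 and 0.93 ± 1.2. Thy1 was at 6.76, 7.78 and 7.71 on the KO arrays and 5.47, 4.80 and 6.15 on the WT arrays (1.94 ± 0.62, adjusted p = 0.808), and Cd96 was at 5.30, 5.04 and 5.41 on the KO arrays and 6.65, 6.82 and 6.07 on the WT arrays (-1.26 ± 0.39). These T cell surface antigens thus differed in opposite directions, each without overlap.

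Of 12 immediate-early and stress genes measured, 11 were higher in KO (91.7%, against 47.3% of all genes) and 1 lower, with a median of 0.57 (0.43 without KO 1). Of these, 4 lay above without overlap (Egr1, Fos, Junb and Ier3), as 5.63% of all genes did. Relative to WT, the list averaged 0.60, 0.69 and 0.37 on KO 1 to KO 3, and -0.12, -0.05 and 0.17 on WT 1 to WT 3. Ier3, an inhibitor of cell death, was at 6.55, 7.38 and 7.50 on the KO arrays and 6.52, 6.49 and 6.08 on the WT arrays, and Fos was at 7.13, 6.80 and 6.45 on the KO arrays and 6.01, 6.28 and 6.27 on the WT arrays. None passed.

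Of 19 interferon-stimulated genes 11 were higher and 8 lower in KO, with a median of 0.10. Without KO 1, 7 were higher and 12 lower, the median was -0.09, and 5 lay below the WT arrays without overlap and 0 above, against 12.4% and 11.5% of all genes. With all 3 KO arrays the 1 member without overlap was Ifi44 (-2.58 ± 0.82, adjusted p = 0.808). It was at 3.39, 3.81 and 4.83 on the KO arrays and 6.11, 5.60 and 8.09 on the WT arrays. Its KO values were all within the lowest 5% of probe sets. Oasl2 differed by -1.25 ± 0.77 and Ifit2 by -0.75 ± 0.37. Of 6 HIN-200 genes, DNA sensors of the interferon response that lie in a cluster on chromosome 1, 2 were higher and 4 lower with a median of -0.66. Ifi209 was at 8.36, 8.08 and 8.10 on the KO arrays and 9.36, 9.51 and 9.46 on the WT arrays (-1.26 ± 0.30, adjusted p = 0.421), with 5 of 6 probe sets apart. Ifi203 and Aim2 were also lower without overlap (-0.86 ± 0.25 and -0.47 ± 0.18) and Ifi207 higher (0.73 ± 0.68). Ifi202b was high on WT 1 alone, at 7.10, and at 3.23 or below on the other 5 arrays.

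Cell cycle genes had a median of -0.11, or -0.02 without KO 1, with 11 of 31 higher and 20 lower. Ccnd2, the cyclin D2 of growth factor signalling, was at 7.65, 8.56 and 8.73 on the KO arrays and 9.79, 9.54 and 9.63 on the WT arrays (-1.34 ± 0.36, adjusted p = 0.583), with 6 of 9 probe sets apart, while Ccnd1 overlapped at 0.00. The replication genes Mcm2 and Tyms differed by -0.55 ± 0.42 and -0.54 ± 0.29, mainly on KO 1, with -0.25 for Tyms within probe sets. Among p53 targets and regulators of cell death, 10 of 17 were higher, with a median of 0.13. Bid, a death-promoting member of the BCL2 family, was at 6.34, 7.38 and 7.50 on the KO arrays and 8.26, 7.87 and 8.04 on the WT arrays (-0.98 ± 0.32). The survival gene Bcl2 was also lower without overlap, at 7.37, 7.05 and 7.25 on the KO arrays and 8.49, 7.38 and 8.01 on the WT arrays (-0.74 ± 0.46).

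Enzymes of lipid mediators, histamine and reactive oxygen had a median of 0.04 over 20 genes, 10 higher and 10 lower, and 5 lay above and 3 below without overlap (against 5.63% and 5.76% of all genes). Ncf1, the p47phox subunit of the NADPH oxidase, was at 7.37, 7.53 and 7.83 on the KO arrays and 8.78, 8.73 and 8.67 on the WT arrays (-1.15 ± 0.41), with 7 of 12 probe sets apart. Ncf4, the p40phox subunit, was at 6.29, 6.19 and 6.4 on the KO arrays and 6.96, 7.32 and 6.73 on the WT arrays (-0.71 ± 0.39). Cat, which breaks down hydrogen peroxide, was at 8.42, 8.82 and 8.56 on the KO arrays and 7.96, 7.64 and 8.06 on the WT arrays (0.72 ± 0.27), but its 13 probe sets were split, 7 higher and 6 lower, with a within-probe-set difference of 0.11. Near-identical copies of Ncf1 in the mouse genome were not checked.

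Chemokines, their receptors and adhesion molecules had a median of 0.02 over 25 genes, with 14 higher and 11 lower. Dpp4, a surface peptidase that cuts chemokines, was at 5.61, 6.41 and 7.73 on the KO arrays and 8.98, 7.82 and 8.61 on the WT arrays (-1.89 ± 0.45, adjusted p = 0.438), with all 24 probe sets lower and 15 apart. Cxcr4, which retains cells in the marrow, was at 9.60, 9.72 and 9.84 on the KO arrays and 10.23, 9.99 and 10.09 on the WT arrays (-0.39 ± 0.25, and -0.23 within probe sets). Itgb2, the beta chain of the leukocyte integrins, lay above WT at 8.21, 6.96 and 6.78 on the KO arrays and 6.68, 6.57 and 6.06 on the WT arrays.

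Genes of ribosome biogenesis and of the respiratory chain were lower on KO 1 and level on the others. The medians of -0.08 over 20 and -0.10 over 27 genes became 0.09 and -0.01 without KO 1, and Pes1 and Sdhb, the members that differed most (-1.29 ± 0.61 and -0.60 ± 0.39), differed by -0.56 and -0.02 without it. Within probe sets Pes1 differed by -0.84. Of 11 housekeeping genes 2 were higher and 9 lower, with a median of -0.08, and Rplp0, Tbp, Tubb5 and Actb were lower without overlap (4 of 11, against 5.76% of all genes), with -0.26 for Tbp and -0.00 for Actb within probe sets. With Rplp0 among them, they averaged -0.41, -0.24 and -0.19 relative to WT on KO 1 to KO 3.

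**Figure D5:**
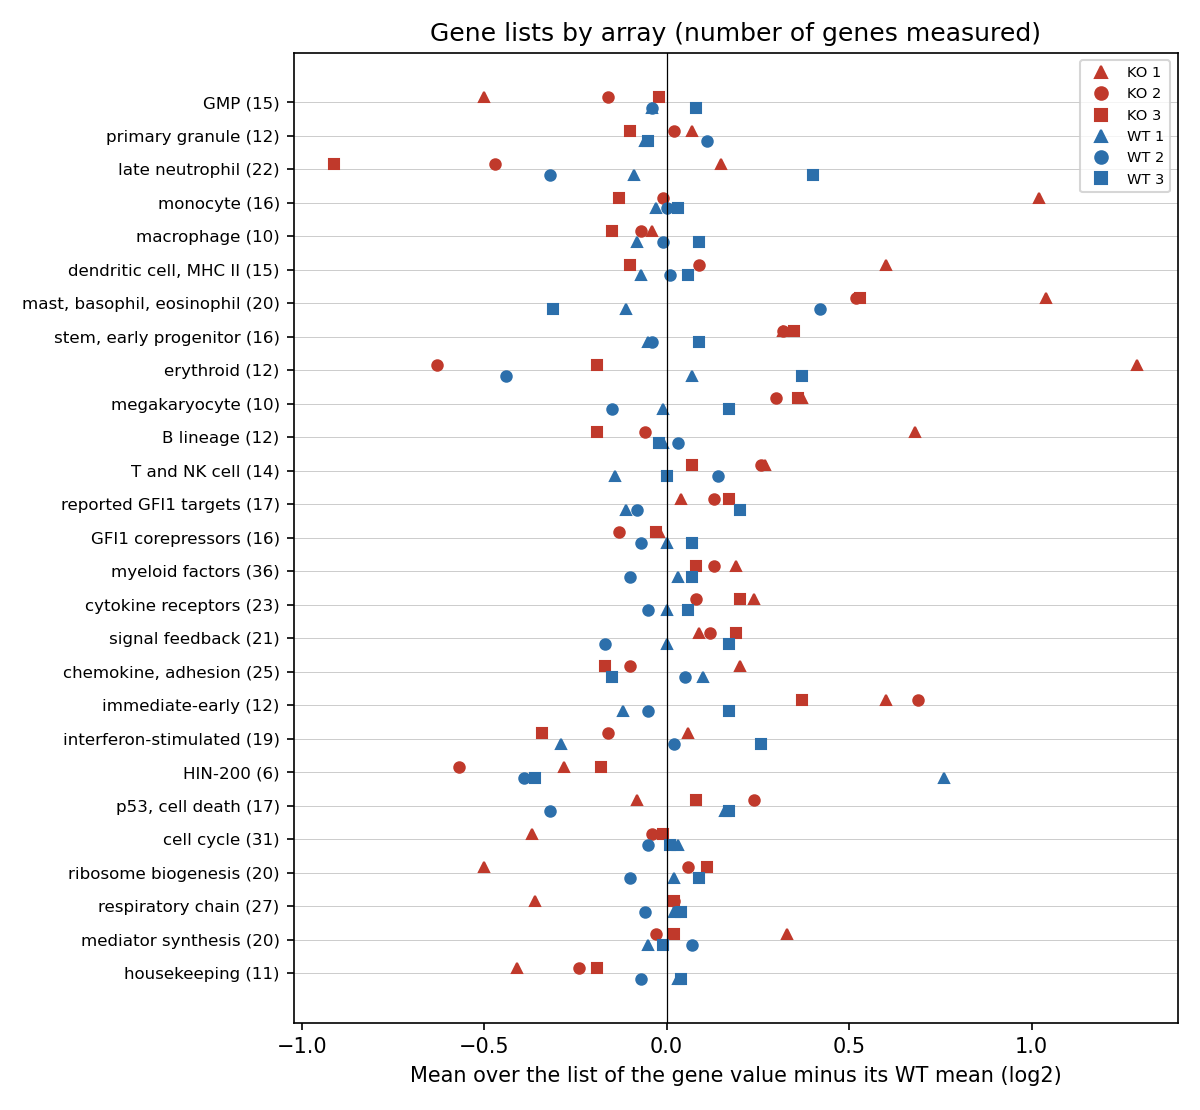
Each row is a gene list with its number of measured genes, and each point is the mean over the list of the gene value minus its WT mean (log2) on 1 array, KO in red above WT in blue, with the marker giving the array number. KO 1 (red triangle) lies away from KO 2 and KO 3 in the monocyte (1.02) and erythroid (1.29) lists. All 3 KO arrays lie above the WT arrays in the stem, megakaryocyte, immediate-early and mast cell, basophil and eosinophil lists. They also do so, narrowly, in the cytokine receptor and myeloid factor lists.

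The remaining genes with the smallest p among those without overlap did not pass in either fit. Those higher in KO were Cxadr, Mcoln2, Pcp2, Kcnab1, Zdhhc2, Btla, Cdc42bpb and Clca1. Cxadr, the receptor of coxsackieviruses and adenoviruses and a tight junction protein, was at 8.53, 7.60 and 7.88 on the KO arrays and 6.71, 6.61 and 6.49 on the WT arrays (1.40 ± 0.24, adjusted p = 0.175). Those values mix probe sets, and within its 3 probe sets the differences were 0.18, 0.42 and 2.08. Btla, an inhibitory receptor of lymphocytes, was at 7.26, 6.88 and 7.04 on the KO arrays and 4.66, 5.59 and 5.58 on the WT arrays (1.78 ± 0.34), and all 4 probe sets were apart. Mcoln2, a cation channel of endosomes, was at 8.03, 6.57 and 6.66 on the KO arrays and 3.97, 4.15 and 4.61 on the WT arrays (2.84 ± 0.50, adjusted p = 0.212). Cdc42bpb, a kinase bound by the GTPase CDC42, differed by 1.80 ± 0.35 with 12 of 17 probe sets apart. Clca1, a secreted regulator of chloride channels, had the largest difference of the 8, 3.91 ± 0.77, and ranged over the KO arrays from 5.86 on KO 3 to 9.32 on KO 1. The WT values of Clca1, Mcoln2 and Kcnab1 were all within the lowest 5% of probe sets, so the size of their differences is uncertain.

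Those lower in KO were Pde6c, Adamts6, Slc9a7, Ptger2, Hmgn3, Tifa, Unc119b, Ifi209, Dpp4 and Armcx1. Ptger2, a receptor for prostaglandin E, was at 4.64, 5.12 and 5.94 on the KO arrays and 6.90, 7.14 and 7.4 on the WT arrays (-1.91 ± 0.39, adjusted p = 0.252). Hmgn3, a nucleosome-binding protein, was at 3.93, 4.38 and 5.83 on the KO arrays and 8.01, 6.79 and 7.78 on the WT arrays (-2.81 ± 0.60), with all 6 probe sets apart. Tifa, an adaptor of NF-kB signalling, was at 5.99, 5.92 and 6.0 on the KO arrays and 7.0, 7.27 and 7.30 on the WT arrays (-1.22 ± 0.27), and Pde6c, a phosphodiesterase of cone photoreceptors, differed by -1.35 ± 0.20 (adjusted p = 0.0813 and 0.0704 in the fits on 12 and 10 arrays). Slc9a7, a sodium and proton exchanger, differed by -1.74 ± 0.33, and Adamts6, a secreted metalloprotease, by -1.71 ± 0.27, though 2 of its 7 probe sets were higher.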

How the data were processed

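RNA of GMPs sorted from KO and WT mice, 3 arrays each, was measured among 12 arrays. Sample groups came from the array labels. The deposited values are log2 signals made by the authors with RMA, as the submitters' processing notes say, with no version or settings stated there. The number of arrays limits the precision. No scan date or other batch was known.

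The table held 105661 exon-level probe sets. The platform annotation gave a single symbol for 98975 of these, several symbols for 1703, and no symbol for 4983. The median of the probe sets with 1 symbol gave 14201 genes, 2874 of them from 1 probe set. Symbols were updated for 1752 genes through a RefSeq table. Every probe set reached at least 6.14 on some array, so probe sets low on all arrays are not in the table analysed here.

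KO minus WT was tested by limma's lmFit and eBayes (limma 3.58.1, R 4.3.3) on all 12 arrays, and again on 10 without KO 1 and SNP 1, with Benjamini-Hochberg adjustment over 14201 genes and a threshold of 0.05. The step was tested on simulated data in which a gene had the same spread on every array. The higher scatter of KO 1 and SNP 1 was not simulated. Groups did not overlap where all KO values lay on one side of all WT values. A gene value under the 5th percentile of all probe sets on its array was called within the lowest 5% of probe sets.

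The comparison, the gene lists and the rule for named genes were chosen with earlier results of these data known. The rule named Gfi1 and Gfi1b; genes that passed; in each direction the 12 genes with the smallest p among those without overlap; in each list the 3 members with the largest difference and up to 3 more without overlap; and a set of factors and receptors often described with GFI1, of which Elane and Id2 had no value. Uncharacterised, olfactory and small RNA genes, Y-linked genes and Xist were left out of the parts on tests. Other genes of chromosome X, such as Slc9a7 and Armcx1, were kept. Other genes given values, such as S100a8, S100a9, Chil3, Hbb-b1, Lyz2, Ly6g, Cd34, Prtn3, Ccnd1 and Slc18a2, were chosen after their values were seen. Alternatives covered the gene value, the normalization, a filter on dim genes, the variance prior, weights for arrays, a replicate block, the arrays in the fit, a fold threshold, single probe sets and leaving out each array. The within-probe-set difference was added after seeing the data.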

Additional observations from a re-analysis of the deposited data

How the results depend on the processing

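The count of called genes depended on the processing. In the fit on 12 arrays (1 called) it was 0 with median polish or with the probe set of the highest mean, 3 with the mean of the probe sets (Ndrg2, Tulp4 and Cdc42bpb), 3 after repeated quantile normalization, 3 of all probe sets tested one by one, and 140 with array weights (81 higher and 59 lower), which gave KO 1 a weight of 0.248 and KO 2 one of 4.54. It was 1 with only the KO and WT arrays, where the gene was Mmp8 and not Rplp0. Leaving out single arrays gave 0 to 2, with 0 without WT 1, WT 2 or WT 3, and 2 without KO 1 or KO 3. In the fit on 10 arrays (9 called) it was 4 with median polish, 18 with the mean, 2 with the brightest probe set, 3 without the dimmest 30% of genes, 27 with array weights, 1 (Mmp8) with only the KO and WT arrays and 3 of all probe sets. Leaving out single arrays gave 0 to 11, with 0 without KO 2, KO 3 or WT 1, 1 without WT 3 and 11 without WT 2. Median centring, the variance trend and the fold threshold kept the counts within 1.5 times. The count of genes whose KO and WT arrays do not overlap (1618) stayed between 1129 and 1672 under the other settings and was 2636 to 3728 with an array left out, which leaves fewer arrays to overlap. With the brightest probe set the differences of Adamts6 (0.10), Itgb3 (0.66), Cat (-0.23), Cd96 (0.09), Ncf1 (0.05), Oasl2 (0.06), Csf3r (0.03), Ifit2 (0.01), Slc40a1 (0.07), Tubb5 (0.03) and Csf1 (-0.50) changed sign, and the cause was not tested. Over all settings 25 named genes and 16 list medians took both signs. Unadjusted p-values under 0.05 were found for 670 and 673 genes where median polish and the brightest probe set gave 0 calls.

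KO and WT arrays share replicate numbers. The deviations of same-numbered arrays correlated at 0.0277, 0.0425 and -0.0152, so the numbers are not treated as pairs. With the replicate block, 0 genes were called in either fit (750 and 804 at an unadjusted p under 0.05).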

Other observations

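The genes below are outside the lists, were at least 1 apart without overlap and were chosen after their values were seen, and none passed in either fit. Beside Clca1, 2 more genes of its family were higher in KO: Clca2, at 8.45, 6.76 and 5.68 on the KO arrays and 4.75, 4.60 and 4.89 on the WT arrays, and Clca4, at 7.94, 6.57 and 3.99 on the KO arrays and 3.75, 3.39 and 3.50 on the WT arrays. These genes lie side by side and are close in sequence, so probe sets could read more than 1. Chil5, a chitinase-like protein, was at 6.31, 7.25 and 6.26 on the KO arrays and 3.25, 3.61 and 4.24 on the WT arrays. Il1f9, an IL-1 family cytokine now called IL-36 gamma, was at 8.20, 7.0 and 7.08 on the KO arrays and 4.23, 4.69 and 5.23 on the WT arrays. The WT values of Clca2, Clca4, Chil5 and Il1f9 were all within the lowest 5% of probe sets, so the size of their differences is uncertain. Clca4 and Chil5 rest on 1 probe set each. Siglece, an inhibitory receptor of myeloid cells, was at 7.30, 8.15 and 8.57 on the KO arrays and 6.93, 6.56 and 6.38 on the WT arrays (1.39, or 0.74 within probe sets, and 1.74 without KO 1 with adjusted p = 0.0538). Cd33, of the same receptor family, was at 7.16, 7.44 and 6.76 on the KO arrays and 5.86, 5.87 and 5.61 on the WT arrays (1.34, or 0.79 within probe sets). Pim1, a survival kinase induced by cytokines, was at 7.85, 7.07 and 7.08 on the KO arrays and 5.80, 6.29 and 6.12 on the WT arrays. Fn1, fibronectin, was high mainly on KO 1, at 10.27, 7.57 and 6.51 on the KO arrays and 6.23, 6.39 and 6.03 on the WT arrays.

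Among those lower, C5ar1, the receptor for the complement fragment C5a, was at 4.44, 4.53 and 4.41 on the KO arrays and 5.37, 5.50 and 6.17 on the WT arrays. Some genes of inhibitory receptors also had lower gene values. Ceacam1 was at 6.15, 7.24 and 8.38 on the KO arrays and 8.84, 8.41 and 8.43 on the WT arrays (-1.30, or -0.18 within probe sets). Without KO 1 its gene value differed by -0.75, but by 0.63 within probe sets, so no fall of Ceacam1 is read from it. The inhibitory lectin receptor Clec4a2 was at 6.78, 6.54 and 5.63 on the KO arrays and 6.99, 7.66 and 7.68 on the WT arrays. Fcer2a, the low-affinity IgE receptor, was at 5.78, 6.07 and 5.46 on the KO arrays and 7.56, 7.75 and 6.55 on the WT arrays, opposite to the high-affinity receptor gene Fcer1a. C5ar1 and Fcer2a rest on 1 probe set each. S1pr3, a sphingosine phosphate receptor, was at 5.47, 7.93 and 8.21 on the KO arrays and 8.63, 9.15 and 8.87 on the WT arrays, and Cd69 was at 3.95, 7.21 and 7.13 on the KO arrays and 8.07, 8.34 and 7.94 on the WT arrays, both lowest on KO 1. By chromosome, the share of genes without overlap ran from 8.02% on chromosome 18 to 14.0% on chromosome X.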
